A study of Mus musculus with 18 samples.

Results

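The AP-1 family genes described here are 9 genes of basic leucine zipper transcription factors: Fos, Fosb, Fosl1, Fosl2, Jun, Junb, Jund, Atf3 and Batf. They are named by family membership, with no measured value in the rule, though they were chosen with earlier results of these data known. All 9 were found in the bulk table of 29214 genes and in every cell, nucleus and section table. Urinary bladders of C57BL/6 mice were profiled in 18 libraries. Bulk RNA came from 3 libraries of intact bladder and 3 of dissociated bladder, all labelled with 3 females of 12 months. Single cells of whole bladder came from 5 libraries. The pools at 22 and at 3 months held 3 males each. Both 12-month pools and the 24-month pool were mixed, each with 2 females and 2 males. A further 2 cell libraries were of the detrusor, the muscle wall of the bladder: detrusor alone (3 females, 14 months) and a detrusor-enriched bladder preparation (2 females and 2 males, 14 months). Nuclei came from 1 library (2 females and 2 males, 12 months). Spatial libraries were 2 frozen sections labelled with 4 males of 22 months and 2 labelled with 4 males of 14 months. Each label names several mice, so variation between animals is not seen within a library, and the p-values below measure only the spread between libraries.

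AP-1 is a dimer that binds DNA at the sequence TGANTCA and related sites. Fos proteins (Fos, Fosb, Fosl1, Fosl2) cannot pair with each other and bind DNA with a Jun protein (Jun, Junb, Jund), while Jun proteins can also pair among themselves. Atf3 and Batf pair with Jun proteins as well. Several members, Fos, Fosb, Jun, Junb and Atf3 among them, are immediate-early genes: stimuli such as growth factors switch them on within minutes, through kinases acting on factors already bound at their promoters.

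The promoters of the immediate-early members Fos, Fosb, Jun and Atf3 are shown because these genes moved together between intact and dissociated bladder. Junb moved with them as well, and its window was searched but is not printed. RefSeq on GRCm38.p6 gave 250 bases before the transcription start for 8 of the 9 genes, all but Fosl1. Sequences run 5′ to 3′ on the gene's own strand and end at the last base before the start. The Fosb window overlaps the far end of the annotated gene span, since another transcript model starts further upstream. Capitals mark matches to the motifs named after them.
Fos (chr12:85473640-85473889, plus strand): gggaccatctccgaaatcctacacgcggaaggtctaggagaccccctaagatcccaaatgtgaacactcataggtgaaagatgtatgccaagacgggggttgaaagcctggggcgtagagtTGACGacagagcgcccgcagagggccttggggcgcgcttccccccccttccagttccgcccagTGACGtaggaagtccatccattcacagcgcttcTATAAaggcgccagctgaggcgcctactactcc
Fosb (chr7:19310046-19310295, minus strand): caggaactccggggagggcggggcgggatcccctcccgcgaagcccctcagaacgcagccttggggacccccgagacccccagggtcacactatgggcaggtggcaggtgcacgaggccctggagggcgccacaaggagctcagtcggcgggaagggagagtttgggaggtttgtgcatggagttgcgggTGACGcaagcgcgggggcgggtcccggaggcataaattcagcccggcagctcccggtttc
Jun (chr4:95052223-95052472, minus strand): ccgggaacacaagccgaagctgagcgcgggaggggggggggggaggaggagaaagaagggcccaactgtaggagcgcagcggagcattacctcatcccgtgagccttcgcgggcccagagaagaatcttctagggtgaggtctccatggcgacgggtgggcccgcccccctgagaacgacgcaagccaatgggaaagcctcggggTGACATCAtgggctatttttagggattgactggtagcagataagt
Atf3 (chr1:191183334-191183583, minus strand): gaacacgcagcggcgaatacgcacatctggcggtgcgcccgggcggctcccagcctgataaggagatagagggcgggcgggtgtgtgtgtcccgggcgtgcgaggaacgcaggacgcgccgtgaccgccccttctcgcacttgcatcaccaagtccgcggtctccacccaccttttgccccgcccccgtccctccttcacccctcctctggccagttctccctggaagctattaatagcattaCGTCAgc

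Both strands were searched for TGANTCA (the AP-1 site), TGACGTCA (the cAMP response element), its relaxed form TGANNTCA, the shorter TGACG, the CArG box bound by serum response factor, and the sequence TATAA. The letters of TGACG lie within TGACGTCA, and every TGACGTCA also matches TGANNTCA. In Fos, TGACG began 129 and 66 bases before the start and TATAA 33 bases before it. The letters of TGACG were also found in Fosb (60 bases before the start), Junb (106), Batf (98) and, on the opposite strand, Atf3 (7). TGANNTCA was found in Jun 45 bases and in Jund 61 bases before the start, and the Fosl2 window held none of the motifs. Of all 32851 mouse promoter windows of that length, 17.8% held TGACG, 11.9% TGANNTCA, 1.55% TGACGTCA, 6.75% TGANTCA, 22.8% TATAA and 1.47% the CArG box. A match describes letters and is not evidence of binding.

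Bulk libraries held 23083752 to 68760791 reads for intact and 24192299 to 28106085 for dissociated bladder. After filtering, the cell libraries held 31784 cells (949 to 8420 per library), the nuclei library 3375 nuclei and the sections 4415 spots. A class name ending in "-like" rests on marker genes alone, and 21.0% of the cells stayed in clusters without a name (0% to 47.2% per library). No pair of cell or nucleus libraries shared more than 64 barcodes. The libraries of 3- and 22-month males have barcodes of 14 bases and the other droplet libraries 16, so barcode type and the male-only pools cannot be told apart. The first 14-month section stood apart from the other sections in Fosb, Fosl1 and Atf3, as given with the section results.

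Intact bladder was set against dissociated bladder in the bulk libraries. All 9 members rose in dissociated bladder, and for each of them every dissociated library lay above every intact library. How many of all genes separated in this way is not given here. By edgeR's quasi-likelihood test with Benjamini-Hochberg adjustment, 59.2% of all 16538 genes tested were called, so a call alone is common in this comparison. The labels do not say whether the 3 libraries of a preparation come from separate mice or from parts of 1 pool, so the SD and p-values here cover the spread between these libraries, which may be technical. The members' median log2 fold change was 4.77, beside a median of -0.03 over all genes. Values below are CPM, the count of a gene scaled to a common library total, which are not divided by gene length and are compared only within a gene.

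Fos, the founding partner of Jun, measured 27.6, 11.1 and 26.1 CPM in intact bladder and 3114, 2306 and 2264 CPM in dissociated bladder. The means were 21.6 ± 9.14 and 2561 ± 479 CPM (SD, n = 3 and 3), and the fitted log2 difference was 7.02 (SE 0.41; edgeR, Benjamini-Hochberg adjusted p = 1.16e-05). Within the intact libraries the highest value was 2.49 times the lowest, and within the dissociated libraries 1.38 times. Fosb, its close relative with a short-lived transcript, measured 8.01, 1.18 and 6.96 CPM intact and 3904, 2792 and 3158 CPM dissociated. The fitted log2 fold change of Fosb was 9.47 (SE 0.74; edgeR, adjusted p = 4.34e-05), and the second intact library was the low one for both genes.

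The Fos-related antigens have slower kinetics in cultured cells. Fosl1, which encodes Fra-1, rose from 2.51, 3.17 and 3.19 CPM to 101, 107 and 152 CPM, a log2 fold change of 5.44 (SE 0.21; edgeR, adjusted p = 2.09e-06). Fosl2, which encodes Fra-2, was already at 281, 259 and 292 CPM in intact bladder and reached 1086, 1101 and 1249 CPM. That rise was 2.16 on the log2 scale (SE 0.11; edgeR, adjusted p = 4.40e-06), and the intact libraries lay within 1.13 times of each other.

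Among the Jun genes, Jun measured 50.6, 39.3 and 81.0 CPM in intact and 1379, 978 and 979 CPM in dissociated bladder, a log2 fold change of 4.40 (SE 0.31; edgeR, adjusted p = 2.49e-05). Junb measured 69.4, 58.5 and 72.9 CPM against 1850, 1594 and 1621 CPM, a log2 fold change of 4.77 (SE 0.14; edgeR, adjusted p = 6.94e-07). Jund, which unlike the other Jun genes is expressed in resting cells, measured 47.7, 43.5 and 75.3 CPM against 283, 253 and 281 CPM. Its log2 fold change was 2.41 (SE 0.21; edgeR, adjusted p = 6.89e-05). For Jun and Jund the third intact library was the highest intact one, and it still lay far below the lowest dissociated one.

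Atf3, a stress-induced factor, measured 4.42, 2.84 and 9.54 CPM in intact and 1076, 932 and 915 CPM in dissociated bladder, a log2 fold change of 7.61 (SE 0.46; edgeR, adjusted p = 1.33e-05). Batf, a factor of lymphocytes and dendritic cells, measured 1.60, 1.95 and 2.35 CPM against 14.4, 16.3 and 12.6 CPM. Its log2 fold change was 2.98 (SE 0.17; edgeR, adjusted p = 9.39e-06). All 9 members were called in all 12 alternatives, which include DESeq2, other scalings, the replicate number as a block and each library left out.

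**Figure D1:**
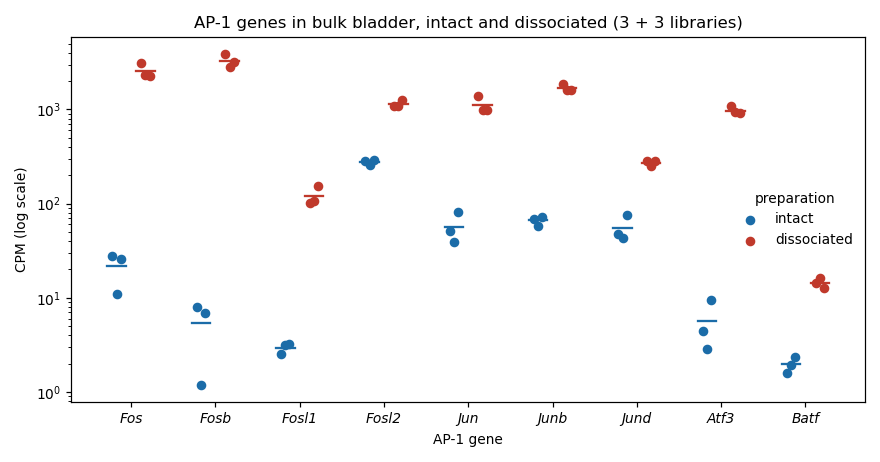
CPM (log scale) of each AP-1 gene in the 3 intact and 3 dissociated bulk libraries, 1 point per library with a bar at the group mean. The groups do not overlap for any of the 9 genes, and intact Fosl2 lies between 259 and 292 CPM.

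Marker lists of cell types moved with the preparation too. The summed level of 10 smooth muscle markers was 41545 to 43337 CPM in intact and 2245 to 3388 CPM in dissociated bladder, and that of 12 fibroblast markers 18313 to 22241 and 35232 to 51004 CPM. The 13 urothelial markers summed to 6242 to 7146 and 4476 to 6552 CPM, and the 6 skeletal muscle markers to 536 to 697 and 25.4 to 41.2 CPM. The 8 dendritic markers summed to 51.6 to 68.0 CPM intact and 95.5 to 194 CPM dissociated, and the 11 macrophage or monocyte markers to 870 to 974 and 1040 to 1424 CPM. The 8 T or NK markers in the bulk table, of 10 listed, summed to 11.2 to 25.4 and 23.7 to 98.9 CPM, with overlapping groups. No marker of the smooth muscle, fibroblast or urothelial list was at 0 in any bulk library. In bulk RNA, fewer cells of a type and less RNA per cell cannot be told apart, and the part of cell composition in the members' rise, Batf included, was not tested.

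Other genes of the pathway were taken from 3 lists, also chosen with earlier results of these data known. Of 14 bZIP factors that can pair with Fos or Jun proteins or bind like sites, 10 rose and 0 fell in dissociated bladder. These counts, and those of the other lists, stand beside the 59.2% of all genes called. Crem, a cAMP-responsive factor, went from 7.54, 9.41 and 9.85 CPM to 132, 201 and 217 CPM, a log2 fold change of 4.46 (SE 0.22; edgeR, adjusted p = 4.97e-06). Maff, a small Maf protein, rose by 4.27 (SE 0.21; edgeR, adjusted p = 4.92e-06). Of 19 kinases and promoter factors upstream of the Fos and Jun genes, 5 rose and 4 fell. Elk4, a partner of serum response factor, had a log2 fold change of 0.85 and Mapk8, the kinase JNK1, of 0.76, while Map2k7 fell by 0.43 and Mapk14, the kinase p38 alpha, fell by 0.36. Of 12 genes described as AP-1 targets, 11 were tested, 9 rose and 1 fell. Hbegf, a growth factor of the EGF family, rose by 4.77 (SE 0.18; edgeR, adjusted p = 1.90e-06), from 6.50, 6.57 and 5.85 CPM to 131, 149 and 197 CPM. Il6 was at 1, 2 and 2 reads in intact and 5094, 4761 and 4017 reads in dissociated bladder, and the cyclin Ccnd1 fell by 0.72 (SE 0.14).

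The cell files give the level per class. Counts were summed over the cells of a class in each library, and classes with at least 50 cells in at least 2 of the 7 cell libraries were compared, 11 in all. A member was called common where its highest class mean was at most 10 times its lowest, restricted where its highest was over 10 times its median class mean, and graded otherwise. By this rule 6 members were common (Fos, Fosb, Fosl2, Jun, Junb and Jund), 1 was graded (Atf3) and 2 were restricted (Fosl1 and Batf). Without the detrusor-only library 3 members were common, and Fos, Fosb and Junb were graded. Fos was the least firm of the 6 and was graded in 4 of 10 alternatives, while Fosl2 and Jund were common in all 10. Batf was graded without the detrusor-enriched library and Jun without the 22-month male library. All these levels are from dissociated cells, and the rule describes them only. A class mean is taken over the libraries that hold the class, which differ between classes, so the order of classes also carries differences between libraries.

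Fos was lowest in T-or-NK-like cells, at 1284, 1293 and 610 CPM in 3 libraries (mean 1062 CPM), and highest in pericyte-like cells, at 14535, 8561 and 6024 CPM (mean 9707 CPM). The first of these values, from 94 cells of the 22-month male library, set that rank: the mean of the other 2 lay below the 7344 CPM of Schwann-like cells. At Leiden resolution 2 those 94 cells were named as 36 pericyte-like and 58 smooth muscle-like, and with doublets kept the library had no pericyte-like class. Fibroblast-like cells spanned 4344 to 6986 CPM over 7 libraries and urothelial-like cells 1277 to 2993 CPM over 6, and these ranges did not overlap. Only T-or-NK-like and dendritic-like cells, the bottom neighbours in the order of class means, had Fos ranges apart from each other. The other 9 of 10 neighbouring pairs overlapped.

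Fosb ran from a mean of 153 CPM in T-or-NK-like to 1117 CPM in pericyte-like cells. Within fibroblast-like cells it was 269 and 213 CPM in the libraries of 22- and 3-month males and 1096 to 1589 CPM in the other 5. Jun ran from 661 CPM in T-or-NK-like to 5028 CPM in blood endothelial-like cells, and Junb from 1275 CPM in mesothelial-like to 7419 CPM in pericyte-like cells. T-or-NK-like cells, low in Fos and Jun, had Junb at 5084, 7401 and 4685 CPM.

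Jund had the narrowest spread between classes in this set, from 794 CPM in urothelial-like to 3249 CPM in pericyte-like cells. Urothelial-like cells lay at 637 to 977 CPM in 6 libraries, below every T-or-NK-like value (1288 to 1533 CPM), the next class up. Mesothelial-like cells, further up by their mean, spanned 859 to 3104 CPM and overlapped the urothelial-like range. Fosl2 means lay between 65.6 CPM in Schwann-like and 340 CPM in pericyte-like cells, and all 10 neighbouring pairs in its order overlapped. Its levels in urothelial-like cells were 114 to 180 CPM in 6 libraries.

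Atf3 was lowest in T-or-NK-like cells, at 126, 73.2 and 211 CPM, below both lymphatic endothelial-like values (358 and 886 CPM), the next class in the order. Mesothelial-like cells, further up by their mean, had 122, 3026 and 175 CPM in 3 libraries and overlapped them. Its highest mean, 2712 CPM, was in Schwann-like cells, from 3805 CPM in the detrusor-enriched and 1620 CPM in the detrusor-only library, the only libraries with enough of these cells. Fibroblast-like cells of the same libraries had 488 and 1700 CPM, so Schwann-like cells were higher in 1 of 2. Over all cells, Atf3 was at 748 CPM in the detrusor-enriched library, within the 524 to 794 CPM of the whole-bladder libraries, and at 2335 CPM in the detrusor-only library. In macrophage-or-monocyte-like cells it spanned 339 to 6078 CPM, with the highest value in the detrusor-only library.

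**Figure D2:**
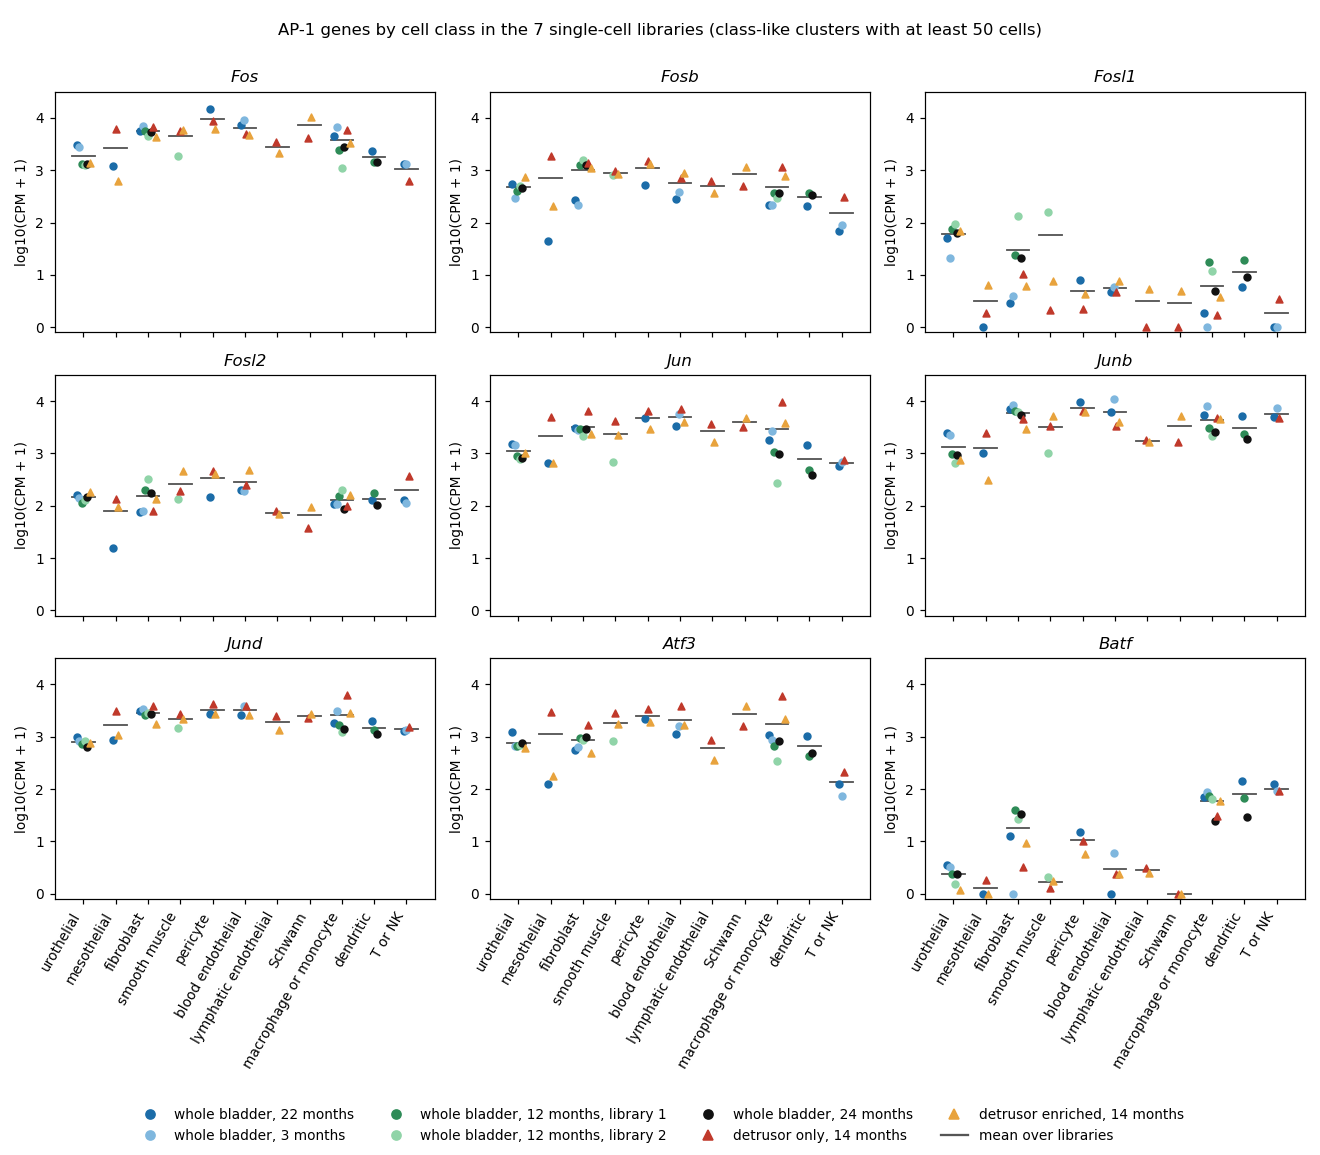
Level of each AP-1 gene by cell class, as log10(CPM + 1), in the 7 cell libraries, with 1 point per library that has at least 50 cells of the class. Jund means lie between 794 and 3249 CPM over the 11 classes, whereas the highest Fosl1 mean is in urothelial-like cells and the highest Batf means are in T-or-NK-, dendritic- and macrophage-or-monocyte-like cells.

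Fosl1 was highest in urothelial-like cells: 73.0 and 92.1 CPM in the 12-month libraries, 60.8 CPM at 24 months, 67.4 CPM in the detrusor-enriched library, 48.9 CPM in 22-month males and 19.6 CPM in 3-month males. It was at 0 UMIs in T-or-NK-like cells of 2 of 3 libraries and at 2.51 CPM in the other. The high mean of smooth muscle-like cells, 55.7 CPM, rested on the second 12-month library (159 CPM), with 6.53 and 1.09 CPM in the other 2. In that library fibroblast-like cells also had 135 CPM of Fosl1, against 1.95 to 23.2 CPM in the other 6. The 13 urothelial markers summed there to 1562 CPM in fibroblast-like cells, against 1285 CPM in the first 12-month library, where Fosl1 was at 23.2 CPM in these cells. In the second 12-month library itself, urothelial-like cells had 92.1 CPM of Fosl1, less than the fibroblast-like cells, and 14878 CPM of the urothelial markers.

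Batf was highest in T-or-NK-like cells, at 122, 89.5 and 90.3 CPM. Dendritic-like cells had 144, 67.5 and 27.8 CPM, and macrophage-or-monocyte-like cells 24.0 to 86.3 CPM over 7 libraries. The second 12-month library had 67 macrophage-or-monocyte-like cells. At Leiden resolution 2 it had 13, beside 37 dendritic-like and 17 plasma-like cells. Both Schwann-like samples had Batf at 0, and urothelial-like cells had 0.197 to 2.51 CPM. After thinning each cell to 1000 UMIs, 14 of 134 T-or-NK-like cells of the 22-month male library held a Batf UMI, 10.4% (95% exact binomial interval 5.83% to 16.9%, counting error only). In urothelial-like cells of that library the share was 2 of 1127, 0.177%, and in fibroblast-like cells 40 of 4222, 0.947%. Cells under 1000 UMIs were left out of these shares. The unthinned shares, over all 172, 1143 and 4444 cells, were 12.2%, 0.962% and 2.25% at median depths of 1256.5, 4092 and 2101 UMIs. Of these 3 classes the one with the fewest UMIs had the highest share.

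Classes were also tested against fibroblast-like cells of the same library, with the library as a block, since fibroblast-like cells were present in all 7. Class names came from clustering without the 9 members, their pathway lists or other immediate-early and stress genes, though genes outside these lists that move with the members stayed in. These comparisons share the fibroblast-like samples.

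In urothelial-like cells 6 members were called, beside 58.8% of all genes, and the members' median log2 fold change was -1.04, beside 0.05 over all genes. Fosl1 was higher by 2.46 (SE 0.50; edgeR, adjusted p = 0.000165) and was above the fibroblast-like level in 5 of 6 libraries. Fos fell by 1.37 (SE 0.23), Jun fell by 1.04 (SE 0.33), Junb fell by 2.05 (SE 0.27) and Jund fell by 1.44 (SE 0.22), each lower in 6 of 6 libraries. Batf fell by 3.40 (SE 0.55; edgeR, adjusted p = 1.10e-05). These 6 calls held in all 13 alternatives. Fosb, Fosl2 and Atf3 were not called, and all 3 split by barcode type: they were above fibroblast-like cells in both libraries of 14-base barcodes, but in 0, 1 and 1 of the 4 libraries of 16-base barcodes.

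In T-or-NK-like cells 6 members were called, beside 38.8% of all genes (median -2.38 for the members, -0.37 over all genes). Of all genes 1748 were called higher and 3090 lower by edgeR, and 2342 and 2460 by DESeq2, with a median of 0.63. Fos fell by 3.28 (SE 0.35; edgeR, adjusted p = 7.97e-08), Fosb fell by 2.80 (SE 0.44), Jun fell by 3.17 (SE 0.51), Jund fell by 1.71 (SE 0.30) and Atf3 fell by 3.40 (SE 0.51). Batf was higher by 3.08 (SE 0.69; edgeR, adjusted p = 0.00108), in 3 of 3 libraries. All 6 calls held in 9 of 9 alternatives. Junb (-0.83, SE 0.35, edgeR adjusted p = 0.0663), Fosl2 (0.60) and Fosl1 (-2.38, SE 2.05) were not called.

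In macrophage-or-monocyte-like cells 4 members were called, beside 51.4% of all genes (median -0.21 for the members, -0.11 over all genes). Batf was higher by 2.54 (SE 0.48; edgeR, adjusted p = 9.58e-05), in 6 of 7 libraries and in 13 of 13 alternatives. Atf3 was higher by 0.88 (SE 0.31; edgeR, adjusted p = 0.0210), but in 4 of 7 libraries only. Fosb fell by 0.73 (SE 0.27) and Fosl1 fell by 2.01 (SE 0.69). The calls of Atf3, Fosb and Fosl1 held in 8, 7 and 9 of 13 alternatives, and with whole-bladder libraries alone only Batf was called.

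In blood endothelial-like cells Batf was the 1 member called, beside 36.1% of all genes, and fell by 2.52 (SE 0.98; edgeR, adjusted p = 0.0476). That call held in 4 of 12 alternatives and was lost with RLE scaling, with no filter, and without the 22-month male, either 12-month, the 24-month or either detrusor library (highest adjusted p 0.241). Batf was at 0 to 4.92 CPM in these cells over 4 libraries, below the fibroblast-like level in 3 of 4. The 2 whole-bladder libraries among them held 1 Batf UMI in all. Fosl2 was higher in 4 of 4 libraries, by 0.86 (SE 0.35; edgeR, adjusted p = 0.0628). It was not called in the reported fit and was called in 5 of 12 alternatives, with a log2 fold change of 0.73 to 1.15 over all 12. With RLE scaling Fosl2, not Batf, was the member called. In smooth muscle-like cells Batf alone was called as well, beside 25.8% of all genes, and fell by 3.89 (SE 1.204; edgeR, adjusted p = 0.0194), in 9 of 9 alternatives. Batf was at 0.272, 0.726 and 1.08 CPM in these cells, in samples of 3672276, 1378079 and 928798 UMIs. Both Batf calls thus rest on very few UMIs on the side of the lower class. The members' medians were -0.42 and -0.57, beside -0.13 and -0.08 over all genes.

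The pathway lists were counted in the same fits. Of the 14 bZIP factors, 3 were higher and 4 lower in urothelial-like than in fibroblast-like cells (58.8% of all genes called), 2 and 7 in T-or-NK-like (38.8%), and 4 and 3 in macrophage-or-monocyte-like cells (51.4%). In blood endothelial-like cells 1 was higher and 3 lower (36.1%), and in smooth muscle-like cells 0 and 3 (25.8%). Of the 18 upstream kinases and factors tested, 3 were higher and 6 lower in urothelial-like, 4 and 3 in T-or-NK-like, 6 and 4 in macrophage-or-monocyte-like, 4 and 2 in blood endothelial-like, and 2 and 4 in smooth muscle-like cells. Of the 12 target genes, 3 were higher and 3 lower in urothelial-like, 2 and 4 in T-or-NK-like, 8 and 3 in macrophage-or-monocyte-like, 3 and 4 in blood endothelial-like, and 1 and 3 in smooth muscle-like cells.

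Profiles of the members were compared over 44 samples of a class in a library, as Pearson's r of log2(CPM + 1). Many of these profiles come from the same library, so they are not independent, and r is given as a description. The profiles nearest to Fos among 13762 genes were Jun (0.872), Egr1 (0.833) and Socs3 (0.811), and nearest to Atf3 were Jun (0.795), Egr1 (0.764) and Fos (0.753). Egr1 is an immediate-early zinc finger factor and Socs3 a feedback inhibitor of cytokine signalling. Nearest to Fosl1 were Dsp (0.865), which encodes desmoplakin, Sprr2a3 (0.847), a small proline-rich protein, and Psca (0.840), a surface protein of urothelium and prostate. Nearest to Batf were the leukocyte genes Rac2 (0.868), Selplg (0.861) and Cd48 (0.859). Fos and Batf lie on the same chromosome, at chr12:85473890-85477274 and chr12:85686720-85709087, and their profiles had an r of -0.15.

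Single cells often held several members at once. After thinning to 1000 UMIs, the median fibroblast-like cell held UMIs of 4 or 5 members in every cell library, and the median urothelial-like cell of 2 to 4. The highest medians, 6, were in pericyte-like and macrophage-or-monocyte-like cells of the detrusor-only library. In nuclei thinned the same way the median was 1 member in fibroblast-like and urothelial-like nuclei and 0 in smooth muscle-like nuclei. Cells and nuclei under 1000 UMIs were left out. That kept 195 of 364 fibroblast-like, 646 of 1005 urothelial-like and 766 of 1354 smooth muscle-like nuclei.

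Within 2 classes, nuclei were set against cells of whole bladder. There was 1 nuclei library, whose spread was taken to be that of the 5 libraries of cells, so the p-values have no replicate of nuclei behind them, and nuclei as a preparation and this library cannot be told apart. In urothelial-like nuclei 8 members were called lower and 0 higher, beside 36.2% of all genes. In fibroblast-like nuclei 6 were called lower and 0 higher, beside 22.7%. The fitted changes of most members depended on the scaling. TMM gave the nuclei a factor of 2.003 in urothelial-like and 1.643 in fibroblast-like nuclei, against 0.713 to 1.176 and 0.808 to 1.024 in the cells, which lowers the nuclei in the fit. With library size alone, an alternative chosen after seeing the data, 6 members were called lower and 1 higher in urothelial-like nuclei, and 6 and 0 in fibroblast-like nuclei. Over all genes the calls went from 2065 higher and 2610 lower to 4805 and 620 in urothelial-like nuclei. In fibroblast-like nuclei they went from 958 and 1661 to 2414 and 476, and were 1254 and 1311 with RLE scaling. The members' medians were -5.92 and -6.45 on the log2 scale, beside -0.07 and -0.30 over all genes, and with library size alone -4.81 and -5.50, beside 1.10 and 0.54.

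In urothelial-like nuclei Fos stood at 68.8 CPM (95% Poisson interval 56.6 to 82.8, counting error only), against 1277 to 2993 CPM in the cells of 5 libraries. The fitted log2 fold change was -5.92 (SE 0.54; edgeR, adjusted p = 0.00122), and -4.81 with library size alone. Fosb, at 1 UMI or 0.619 CPM (0.0157 to 3.45), lay against 297 to 553 CPM, and Atf3, also at 1 UMI, against 666 to 1238 CPM. Every one of these nuclei values lay below every cell library.
Fosl1 had 0 UMIs in urothelial-like nuclei, against 19.6 to 92.1 CPM in cells. Set to 3 counts, 1.86 CPM, the nuclei were at least 31.7-fold lower than the mean of the 5 cell libraries, 58.9 CPM, and below each of them. Jun was at 122 CPM against 789 to 1548 CPM, Junb at 351 against 654 to 2461 CPM, and Jund at 54.5 against 637 to 977 CPM. Their fitted log2 fold changes were -4.32 (SE 0.37), -3.11 (SE 0.62) and -5.09 (SE 0.47), with an adjusted p by edgeR of at most 0.00936. With library size alone they were -3.18, -2.03 and -3.88, and Junb was not called (edgeR, adjusted p = 0.105). Batf had 0 UMIs in these nuclei and its mean in cells, 1.61 CPM, lay below the 1.86 CPM that 3 counts make, so the call of a difference is not one this depth can show.

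The Fosl2 level in urothelial-like nuclei was 377 CPM (347 to 408), above the 114 to 163 CPM of the 5 cell libraries. After TMM scaling the fitted log2 fold change was 0.25 (SE 0.28; edgeR, adjusted p = 0.525). It was called in 1 of 12 alternatives, higher with library size alone, at 1.46 (SE 0.27; edgeR, adjusted p = 0.00489). In fibroblast-like nuclei Fosl2 was at 83.2 CPM, inside the range of the cells, 73.9 to 322 CPM, with a fitted log2 fold change of -1.95 (SE 1.04; edgeR, adjusted p = 0.213). It was called lower there in 1 of 12 alternatives, with the 12-month cell libraries alone.

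In fibroblast-like nuclei Fos was at 40.3 CPM (23.1 to 65.5), against 4438 to 6986 CPM in cells, a fitted log2 fold change of -7.96 (SE 0.63; edgeR, adjusted p = 0.00223), and -7.11 with library size alone. Junb was at 171 CPM against 5350 to 8382 CPM, Jun at 280 against 2162 to 3113 CPM, and Jund at 330 against 2600 to 3392 CPM. Their fitted log2 fold changes were -6.13 (SE 0.58), -4.18 (SE 0.52) and -4.01 (SE 0.48), and -5.28, -3.32 and -3.15 with library size alone. For each the single nuclei value fell outside and below the range of the cell libraries.
Fosb was at 20.2 CPM against 213 to 1589 CPM, and its call (edgeR, adjusted p = 0.0469) held in 8 of 12 alternatives, being lost without either 12-month or the 24-month library or with no filter. Atf3 held 1 UMI in these nuclei, 2.52 CPM (0.0638 to 14.1), against 562 to 998 CPM. Fosl1 and Batf had 0 UMIs and were not called, although Batf was called lower in 2 of 12 alternatives. The 7.57 CPM that 3 counts make in these nuclei lay within the range of the cells for both genes, 1.95 to 135 CPM for Fosl1 and 0 to 38.7 CPM for Batf.

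**Figure D3:**
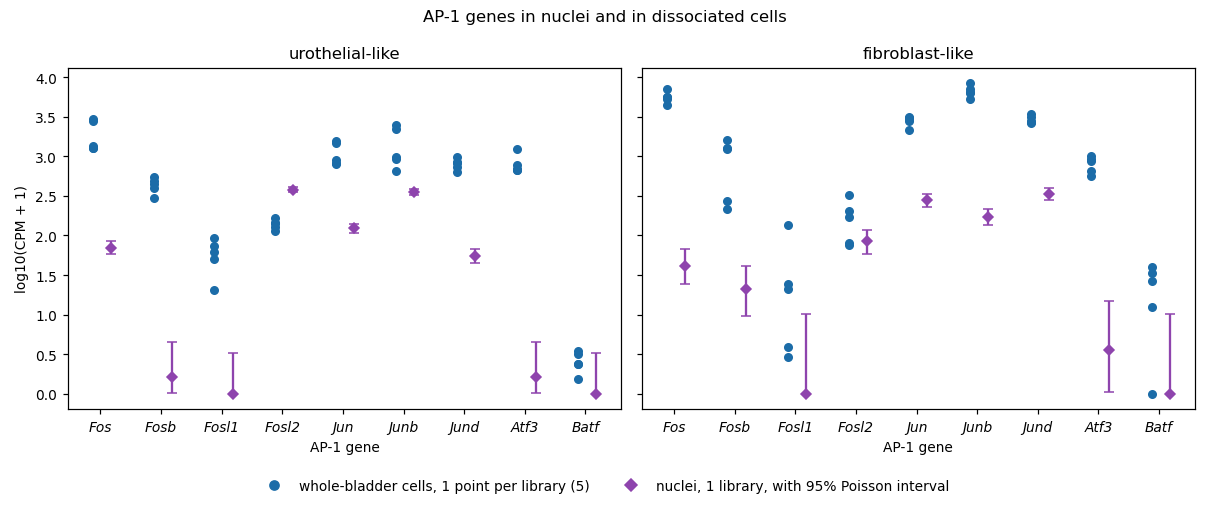
Level of each AP-1 gene as log10(CPM + 1) in urothelial-like and fibroblast-like cells of the 5 whole-bladder libraries (points) and in nuclei of the same class (diamond, with its 95% Poisson interval). Fos, Fosb, Jun, Junb, Jund and Atf3 lie below every cell library in both classes, while Fosl2 lies above the urothelial-like cells at 377 CPM and within the range of the fibroblast-like cells.

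Nuclei of one class carried markers of another. The 10 smooth muscle markers summed to 11968 CPM in fibroblast-like and 5693 CPM in urothelial-like nuclei, but to 158 to 1094 CPM and 10.3 to 163 CPM in the matching whole-bladder cells. The part of this in the members' levels was not tested. In smooth muscle-like nuclei themselves, Fos was at 64.1 CPM, Jund at 222 CPM, Fosb at 47.8 CPM and Atf3 at 2.72 CPM, each below the 3 libraries of smooth muscle-like cells (at least 1850, 1485, 803 and 819 CPM). With TMM scaling, 3 of the bZIP partners were higher and 5 lower of 12 tested in urothelial-like nuclei (36.2% of all genes called), and 2 and 1 of 13 in fibroblast-like nuclei (22.7%).

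Older whole-bladder libraries (22 and 24 months) were set against younger ones (3 and 12 months) with a term for male-only or mixed pools. No member was called in urothelial-like or in fibroblast-like cells. By edgeR 0 of all genes passed in both classes, while 313 and 380 genes had an unadjusted p under 0.05, and DESeq2 called 0 and 4 genes, none of them a member. Fos in urothelial-like cells was 2993 and 1283 CPM at 22 and 24 months and 2782, 1332 and 1277 CPM at 3 and 12 months. The 2 high values were the male libraries of 14-base barcodes, 1 of each age. The fitted difference for Fos was 0.06 (SE 0.18), and Atf3 in urothelial-like cells, at 1238 and 771 CPM against 670, 666 and 689 CPM, differed by 0.52 (SE 0.22; edgeR, adjusted p = 0.9995).

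Sections hold tissue that was frozen, and each spot is a small region of several cells. At 22 months, Fos measured 33.7 and 10.7 CPM, and at 14 months 391 and 177 CPM. Jun was at 46.7 and 29.4 against 191 and 121 CPM, and Junb at 194 and 171 against 635 and 414 CPM. For these 3 genes both 22-month sections lay below both 14-month sections. How many of all genes separated by age in this way is not given here. Marker lists separated the ages as well: at 22 and 14 months the urothelial list summed to 12138 to 12722 and 10386 to 11607 CPM, and the fibroblast list to 7882 to 8156 and 8979 to 10396 CPM. The macrophage or monocyte list summed to 998 to 1189 and 1308 to 1594 CPM, and the neuron list to 1012 to 1270 and 558 to 681 CPM. The plasma list summed to 287 to 1952 and 18.3 to 95.2 CPM. For the T or NK list the sums were 25.8 to 60.3 and 15.4 to 16.4 CPM. The B, lymphatic endothelial, pericyte, Schwann, mesothelial, mast and adipocyte lists also separated the ages. The smooth muscle, skeletal muscle, blood endothelial, dendritic, neutrophil and erythroid lists overlapped. The part of the lists in the members' levels was not tested.
Fosl2 was at 133 and 114 against 245 and 172 CPM, and again the ages did not overlap. Fosb was at 1.75 and 1.37 CPM against 192 and 6.11 CPM, and Atf3 at 3.24 and 1.87 against 212 and 4.45 CPM. Fosl1 had 3 and 2 UMIs at 22 months, against 285 and 14 at 14 months. The ages did not overlap for Fosb, Atf3 and Fosl1 either, and the first 14-month section was the high one for all 3.
Jund was at 174 and 141 against 329 and 137 CPM, and Batf at 2.53 and 4.39 against 3.13 and 3.41 CPM, with overlapping ages.

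By edgeR's quasi-likelihood test 0 of 9 members and 0% of all 14995 genes passed the Benjamini-Hochberg threshold, with 2488 genes at an unadjusted p under 0.05. The fitted log2 differences (22 minus 14 months) were -3.62 for Fos (SE 0.90, adjusted p = 0.272), -1.98 for Jun (SE 0.35, adjusted p = 0.165) and -1.47 for Junb (SE 0.23, adjusted p = 0.121). DESeq2 called 6 members lower at 22 months, among 418 genes called of 20586. Without the second 14-month section, the members' median log2 difference by edgeR was -2.29, beside 0.01 over all genes. That leaves 1 section of 14 months, the high one for Fosb, Fosl1 and Atf3, assumed to vary like the others. The labels do not say whether sections of an age come from different mice.

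**Figure D4:**
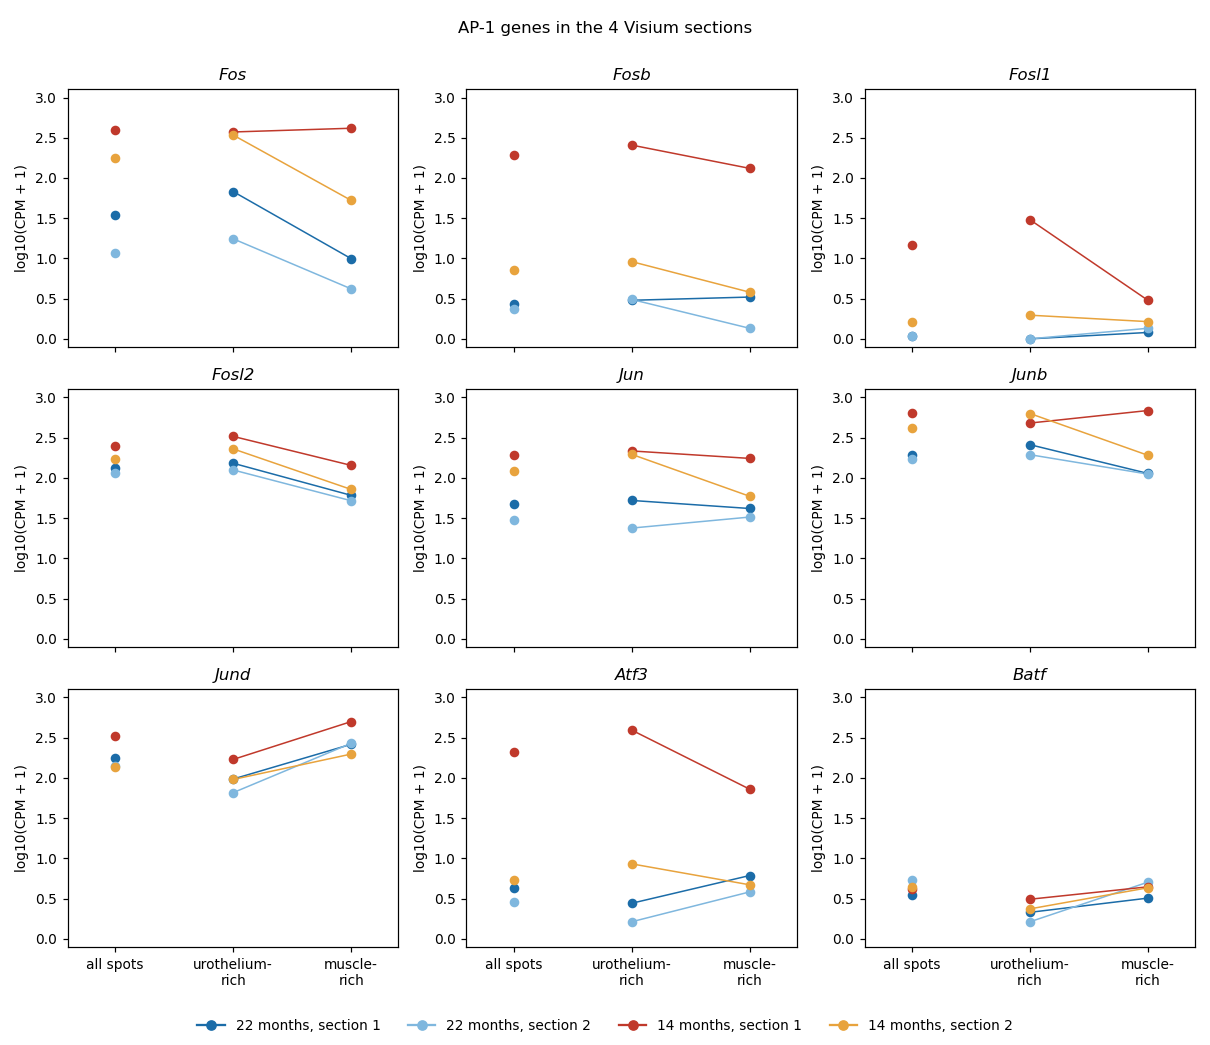
CPM of the AP-1 genes in the 4 sections and in their urothelium-rich and muscle-rich regions. The first 14-month section is the highest for 8 of the 9 genes, and Fosl2 is higher and Jund lower in the urothelium-rich regions of all 4 sections.

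Within sections, regions of spots rich in urothelial markers (74 to 116 spots) were compared with regions rich in smooth muscle markers (407 to 793 spots), with the section as a block. Of the members, 3 were higher in urothelium-rich regions and 2 lower, beside 76.9% of all 13828 genes called (median 0.85 for the members, 0.02 over all genes). Fosl2 was at 151, 125, 328 and 229 CPM in urothelium-rich and 59.8, 51.1, 142 and 71.0 CPM in muscle-rich regions (22-month sections, then 14-month sections). It was higher in 4 of 4 sections, by 1.28 on the log2 scale (SE 0.10; edgeR, adjusted p = 7.10e-08). Jund was at 95.9, 64.6, 169 and 94.7 CPM against 261, 268, 500 and 197 CPM and fell by 1.63 (SE 0.13; edgeR, adjusted p = 5.12e-07).
Batf, at 1.13, 0.628, 2.10 and 1.36 CPM against 2.21, 4.06, 3.43 and 3.31 CPM, fell by 1.36 (SE 0.34; edgeR, adjusted p = 0.00282). These Batf values rest on 9, 3, 11 and 7 UMIs against 22, 23, 29 and 26. In the second 22-month section, 13 of the 23 lay in a muscle-rich region led by Iglc1, Igkc and Ighm. No other muscle-rich region was led by immunoglobulin genes. The calls of Fosl2, Jund and Batf held in 8 of 8 alternatives.

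The Fosl1 difference rested on 1 section. Fosl1 held 153 and 17 UMIs in the urothelium-rich and muscle-rich regions of the first 14-month section, 5 and 5 in the second, and 0 and 2 in each 22-month section. At Leiden resolution 2, a urothelium-rich region of the first 14-month section held 17 spots and was led by Atf3, Hbegf and Krt23. It had 128 Fosl1, 1104 Fosb and 1723 Atf3 UMIs, against 153, 1335 and 2054 in the section's 74 urothelium-rich spots at resolution 1. In the urothelium-rich regions of 36 and 21 spots Fosl1 was at 9.40 and 1.02 CPM. The fitted Fosl1 difference of 2.75 (SE 0.73; edgeR, adjusted p = 0.00715) turned to -0.37 with DESeq2, and without the first 14-month section Fosl1 was too low to test. Fosb was at 2.02, 2.09, 255 and 8.13 CPM in urothelium-rich and 2.31, 0.353, 131 and 2.80 CPM in muscle-rich regions, higher in 3 of 4 sections. Its fitted difference was 0.85 (SE 0.19; edgeR, adjusted p = 0.00179). The size was similar with DESeq2 (0.92) and without the first 14-month section (0.89, SE 0.45), but it was called in neither. Fos was higher in urothelium-rich regions of 3 sections (66.8 against 8.92, 16.5 against 3.18 and 340 against 51.6 CPM) and lower in the first 14-month section (372 against 414 CPM). Its difference of 1.70 (SE 0.80; edgeR, adjusted p = 0.138) was not called, but was called with DESeq2 (1.90) and without that section (2.64). Junb too was called without it (1.15) and not with it (0.71, SE 0.44).

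Single regions differed further. The highest Fos of the first 22-month section, 111 CPM, was in a urothelium-rich region of 63 spots led by Fos, Arg2 and Fabp4, which also had that section's highest Jun (81.0 CPM) and Junb (330 CPM). In the second 14-month section the highest Fos (340 CPM), Jun (196 CPM) and Junb (631 CPM) were in the region led by Fabp4, Krt20, a keratin of surface urothelium, and Tspan6. The first 14-month section had its highest Fos (614 CPM) and Jun (245 CPM) in a region led by Cytl1, Plvap and Lrg1. Its highest Junb (989 CPM) was in one led by Gm42418, Scara5 and Lars2. In the second 22-month section Fos (18.1 CPM) and Junb (210 CPM) were highest in a region led by Shh, Sowahc and Cdh1. Jun there was highest (41.1 CPM) in one led by Ighg1, Iglc3 and Cd79a. In these last 2 sections, none of the regions named for Fos, Jun or Junb was urothelium-rich or muscle-rich. Batf was highest in regions led by immunoglobulin genes in both 22-month sections, at 12.3 CPM (Igkc, Ighm, Igha) and 20.1 CPM (Ighg1, Iglc3, Cd79a). In the 14-month sections it was not: the top regions were led by Gm42418, Scara5 and Lars2 (5.71 CPM) and by Cldn5, Spon1 and Sfrp2 (9.59 CPM), and the region of the second section led by Igkc, Ighm and Ighg2b had 5.97 CPM. In the first 14-month section Jund was highest in a muscle-rich region led by Myh2, Myl4 and Actg2, at 682 CPM, where Atf3 was at its lowest, 42.9 CPM.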

How the data were processed

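The 9 members and the pathway and marker lists were chosen with earlier results of these data known. Per the submitters' processing notes, the tools were bcl2fastq, Cell Ranger, Space Ranger, Subread and featureCounts and the build mm10; versions are not given in the sources used here. The deposited tables hold counts: UMI counts per cell, nucleus or spot, and read counts per gene in bulk. Of the bulk columns, 0 could not be matched to a sample. Barcodes under 500 UMIs or over 20% mitochondrial UMIs were dropped, the highest doublet scores (0.8% per 1000 cells, simulated doublets) were removed, and mitochondrial genes were left out of totals. Cells and spots were clustered per library (leidenalg 0.10.2, resolution 1, 30 components of 2000 variable genes), leaving out 98 genes: the members, the pathway lists and immediate-early and stress genes. Clusters were named from 19 marker lists.

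Counts of bulk libraries, or sums over a class or region per library, were tested with edgeR 4.0.16 (quasi-likelihood, robust, TMM, filterByExpr, two-sided) in R 4.3.3, adjusted by Benjamini-Hochberg over all genes tested with a threshold of 0.05. The test was also run on simulated counts, and the outcome is not given here. SE is the absolute log2 fold change over the square root of F. DESeq2 1.42.0, RLE scaling, no filter, resolution 2, library size alone, doublets kept and each library left out were alternatives. All 9 members passed the low-count filter in every comparison. Named genes were all members, in bulk up to 2 called genes of each pathway list with the largest rise and fall, and the 3 nearest profiles to Fos, Atf3, Fosl1 and Batf. Intervals cover 95% and counting error only; 3 counts stand for a count of 0.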

Additional observations from a re-analysis of the deposited data

Results flagged for a closer look

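The difference in Fosl1 between urothelium-rich and muscle-rich regions had opposite signs at the 2 ages of the sections, and the age difference was not tested. It was -0.201 and -0.353 CPM in the 22-month sections and 27.3 and 0.331 CPM in the 14-month sections. The 22-month values rest on 0 and 2 UMIs a section. For Atf3 the same difference was -3.35 and -2.20 CPM at 22 months and 321 and 3.86 CPM at 14 months, with the size at 14 months set by the first section. There, a urothelium-rich region of 17 spots at resolution 2 held 1723 Atf3 UMIs, against 2054 in the 74 urothelium-rich spots at resolution 1.

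Nuclei minus the mean of whole-bladder cells was of opposite sign between classes for Fosl2, at 239 CPM in urothelial-like and -13.4 CPM in blood endothelial-like cells. The blood endothelial-like value comes from 20 UMIs in nuclei and 2 cell libraries. For Batf it was 6.61 CPM in blood endothelial-like, where nuclei held 1 UMI, against -63.9 CPM in macrophage-or-monocyte-like and -1.61 CPM in urothelial-like cells, where nuclei held 0. None of these differences between classes was tested, and there is a single nuclei library.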

How the results depend on the processing

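All 9 members stayed called in bulk under 12 alternatives, among them the replicate block (9 members, and 10118 genes in place of 9798). Deviations of same-numbered intact and dissociated libraries correlated at 0.20, 0.34 and -0.07, and those of differently numbered ones at -0.44 to 0.28. With so few libraries this cannot decide whether they are pairs. The reported fit did not take the numbers as pairs. The member counts of urothelial-like and T-or-NK-like against fibroblast-like cells, of nuclei against cells and of the regions stayed within 1.5 times of the reported counts. In sections, DESeq2 called 6 members, and leaving out 1 section gave 0 to 4. The 6 members by DESeq2 stood among 418 of 20586 genes called. Each fit with a section left out kept 1 section of an age, so its member count has no replicate on that side. In those fits the members' median log2 difference was -2.32 to -1.10, beside -0.01 to 0.01 over all genes. Macrophage-or-monocyte-like cells had 1 called member with whole-bladder libraries only (5557 of 11930 genes called) and 2 at resolution 2 (6462 of 12902). With 1 library left out they had 1 to 3, beside 5682 to 6612 genes called. Blood endothelial-like cells had 2 with DESeq2 (4825 of 20160 genes called) and 0 with no filter (4700 of 20160). They had 2 with doublets kept (4717 of 13063) and 3 at resolution 2 (4747 of 12902). With 1 library left out they had 0 to 1, beside 3478 to 4904 genes called. Smooth muscle-like cells had 2 at resolution 2 (3698 of 12902 genes called). In older against younger fibroblast-like cells 1 member, Batf, was called without the 24-month library, beside 274 genes in all, and 0 in the other alternatives. Common members numbered 3 to 6 with 1 library left out.

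Signs turned in 37 of 1124 member fold changes. In older against younger urothelial-like cells, without the sex mix term Fosl1 was -0.37. With 1 library left out, the lowest and highest were -0.059 and 0.21 for Fos, -0.0189 and 1.00 for Fosb, -0.48 and 1.43 for Fosl1, -0.0542 and 0.18 for Jun and -0.34 and 0.34 for Jund. In fibroblast-like cells, Fosb was 0.037 and Atf3 0.0106 with no filter, and Batf -0.11 without the sex mix term. With 1 library left out, they spanned -0.31 to 0.0275 for Fos, -0.27 to 0.35 for Fosb, -0.18 to 0.0869 for Atf3 and -0.0923 to 8.33 for Batf. In sections, Jund spanned -1.02 to 0.29 and Batf -0.35 to 0.52. Against fibroblast-like cells, macrophage-or-monocyte-like Junb spanned -0.30 to 0.0515 and Jund -0.0481 to 0.22 (-0.26 with whole-bladder libraries only), blood endothelial-like Jun -0.29 to 0.0644, and smooth muscle-like Fosl1 -0.15 to 0.0564 (0.0344 with doublets kept). Between regions, DESeq2 gave -0.37 for Fosl1 and -0.12 for Atf3, and leaving out 1 section gave 2.99 to 3.23 for Fosl1 and -0.54 to 1.75 for Atf3. The Fosl1 range covers only fits that kept the first 14-month section, since without it Fosl1 was too low to test. For all of these the cause was not tested.

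In bulk, 1789 genes in place of 9798 were called with a log2 fold change tested against a minimum of 1, and library size alone moved the median of all genes from -0.03 to -0.14. In fibroblast-like nuclei 3981 genes were called against the 12-month cells only, 1594 without the first 12-month and 1727 without the 24-month library, in place of 2619. DESeq2 moved the median of all genes from 0.05 to -0.33 in urothelial-like, -0.11 to 0.34 in macrophage-or-monocyte-like, -0.13 to 0.40 in blood endothelial-like and -0.08 to 0.26 in smooth muscle-like against fibroblast-like cells, and from -0.07 to 0.16 and -0.30 to 0.22 in urothelial-like and fibroblast-like nuclei. Library size alone, chosen for nuclei after seeing the data, moved the latter 2 to 1.10 and 0.54. With no filter 69 and 73 genes were called between ages in urothelial-like and fibroblast-like cells, and 287 between the ages of sections, where 300 were called without the first 22-month section. Whole-bladder libraries alone could not be fitted for blood endothelial-like, T-or-NK-like and smooth muscle-like cells, nor could leaving out a library that holds the T-or-NK-like or smooth muscle-like cells. Depth limits Fosl1 and Batf most, with 0 to 3 UMIs in many samples.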
